A study of Mus musculus with 6 samples.

Results

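The S phase and mitosis gene programme was followed here as 50 genes chosen by symbol, 26 that act in DNA replication during S phase and 24 that act in G2 and mitosis, out of 30733 gene symbols listed per library. All 50 were found. All 50 also passed the minimum of a mean of 1 FPKM (fragments per kilobase of transcript, relative to the fragments in the library) over the libraries, so no member was left out of the test. The libraries came from bone marrow cells that the labels call haematopoietic stem cells (HSCs), sorted from wild-type (WT) mice after 5 Gy of total body irradiation. The sort separated cells high in MHC class II (MHCII-hi, 3 libraries) from cells low in it (MHCII-lo, 3 libraries). Both groups were irradiated, so no value below compares irradiated with unirradiated cells. The sources used here give neither the sex and age of the mice nor the sort gates or the time after irradiation. The labels do not say whether replicates came from separate animals, so a p-value here reflects the variation among 6 libraries and that variation may be technical.

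A dividing cell first copies its DNA and then separates the copies. In S phase a ring of MCM proteins opens the double helix, polymerases copy the strands, and the enzymes of nucleotide synthesis supply the building blocks. Many of these genes are switched on by E2F transcription factors. In G2 and mitosis the kinase CDK1 with its cyclins, the spindle motors and the spindle checkpoint divide the chromosomes, and many of these genes carry a promoter element called CHR that is bound by the DREAM and MuvB complexes. HSCs are known as cells that divide rarely, while early granulocyte, erythroid and lymphoid precursors divide often.

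The label was checked against markers. The HSC genes Mecom, Fgd5, Procr and Slamf1 had mean values of 0.0667, 0.00667, 0.253 and 0.230 FPKM in MHCII-lo and 0.217, 0.137, 0.497 and 0.420 FPKM in MHCII-hi. These levels are close to 0, but others on the list of 16 HSC genes were higher. Gata2 had means of 10.8 and 19.5 FPKM, Kit of 12.6 and 15 FPKM, and Ly6a of 2.50 and 35.5 FPKM (MHCII-lo then MHCII-hi). Of the 10 list genes tested, 7 rose in MHCII-hi, 1 fell and 2 did not pass (limma adjusted p under 0.05). Over the whole list the sum was 45.2 to 45.3 FPKM in MHCII-lo and 96.3 to 101 FPKM in MHCII-hi. Ly6a had the largest rise in FPKM on the list. Genes of mature neutrophils summed to between 38245 and 38944 FPKM in MHCII-lo and between 15692 and 16083 FPKM in MHCII-hi. Genes of granulocyte precursors such as Mpo and Elane summed to between 6900 and 7031 FPKM in MHCII-lo and between 4952 and 5072 FPKM in MHCII-hi. The estimated depth was between 2.07e+07 and 3.18e+07 fragments per library, and at that depth each member rested on between 434 and 26779 estimated fragments in a library.

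The programme was expressed in every library of both groups, and most of it was lower in MHCII-hi cells. Of 26 S phase members 22 fell, 0 rose and 4 did not pass the test (limma on log2(FPKM + 1), Benjamini-Hochberg adjusted p under 0.05 over all tested genes). At an unadjusted p under 0.05 the count of S phase members that were higher was also 0. Of 24 G2/M members 16 fell, 4 rose and 4 did not pass. In such bulk libraries, fewer dividing cells and less of each transcript per dividing cell cannot be told apart. Over all 12110 tested genes 33.1% fell and 25.5% rose in MHCII-hi, 58.6% in either direction. The groups did not overlap, with every MHCII-hi library lower, for 22 S phase and 17 G2/M members, and this was so for 36.8% of all tested genes. The median log2 change, MHCII-hi minus MHCII-lo, was -0.26 for the S phase members and -0.16 for the G2/M members, beside -0.04 for all tested genes. Most changes were small fractions of the level, and the spread between replicates was smaller still, with a median coefficient of variation over the 50 members of 2.95% in MHCII-lo and 3.02% in MHCII-hi.

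**Figure D1:**
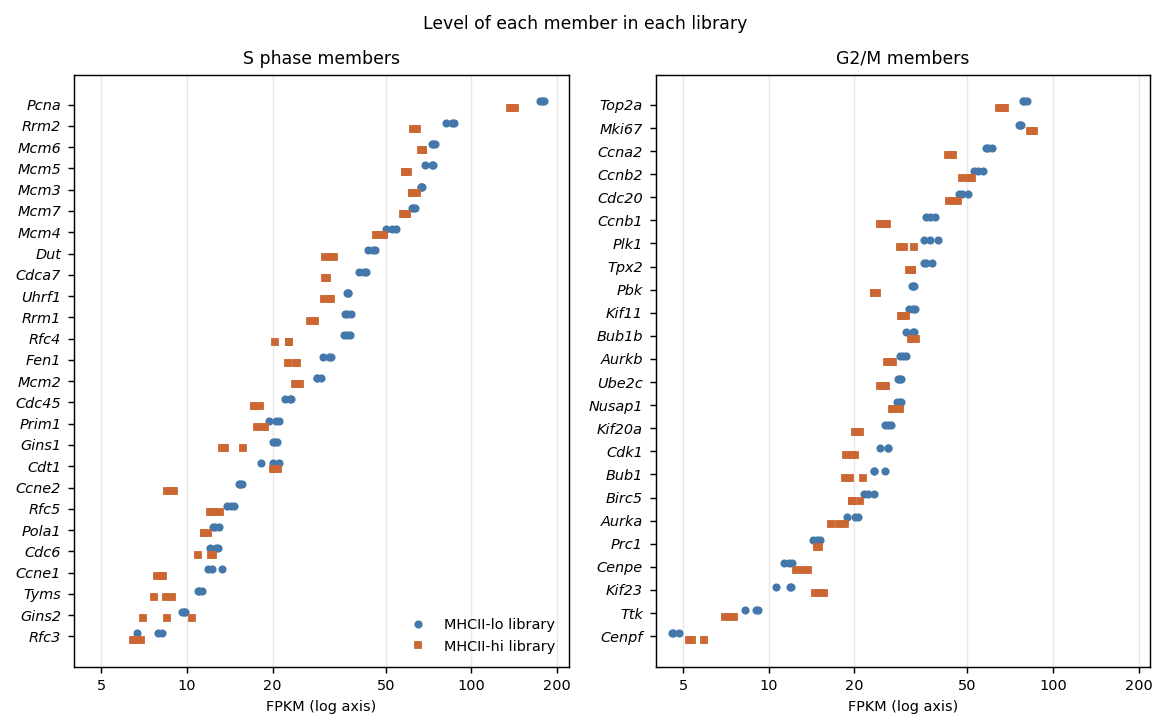
FPKM of each member (log axis) in the 3 MHCII-lo libraries (circles) and the 3 MHCII-hi libraries (squares), S phase members on the left and G2/M members on the right, ordered by their MHCII-lo mean. The squares lie left of the circles for 22 of 26 S phase members, and to the right of them for Kif23, Cenpf, Cenpe and Mki67.

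The direction of the small changes depended on the scale. FPKM is a relative measure, and immunoglobulin genes took 23.4% to 23.7% of summed FPKM in MHCII-hi libraries but 0.493% to 0.502% in MHCII-lo libraries. Therefore 3 scales that use the members little or not at all were applied. The first divided each library by its summed FPKM without immunoglobulin genes, of which the members make up 0.518% to 0.548%. That sum still holds the mature neutrophil markers, at 38245 to 38944 FPKM in MHCII-lo and 15692 to 16083 FPKM in MHCII-hi. This scale thus also varies with abundant cell-type markers. The second scale divided each library by the geometric mean of 16 housekeeping genes, and the third by the median ratio of genes outside the cell cycle lists. With these scales the median over all genes shifted by 0.15, 0.18 and 0.04 on the log2 scale. The housekeeping genes were themselves lower in 13 of 16 cases, with a median log2 change of -0.27.

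After these divisions a core of the programme still fell. With the housekeeping scale 12 S phase members fell and 4 rose, where 14.9% of all tested genes fell and 44.0% rose. Among G2/M members 5 fell and 9 rose on that scale. Without immunoglobulin genes in the scale 13 S phase members fell and 3 rose, and 6 G2/M members fell and 7 rose, where 17.6% of all genes fell and 40.5% rose. With the median ratio scale 17 S phase members fell and 0 rose, and 12 G2/M members fell and 4 rose, beside 29.1% and 28.5% of all genes. The same 12 S phase members were lower on all 3 scales: Cdc45, Gins1, Pcna, Rfc4, Rrm1, Rrm2, Tyms, Dut, Fen1, Ccne1, Ccne2 and Cdca7. Among G2/M members Ccna2, Ccnb1, Cdk1, Kif20a and Pbk were lower, and Mki67, Cenpe, Cenpf and Kif23 were higher, on all 3. The share of all tested genes called on all 3 scales was not computed, so these joint lists have no background.

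**Figure D2:**
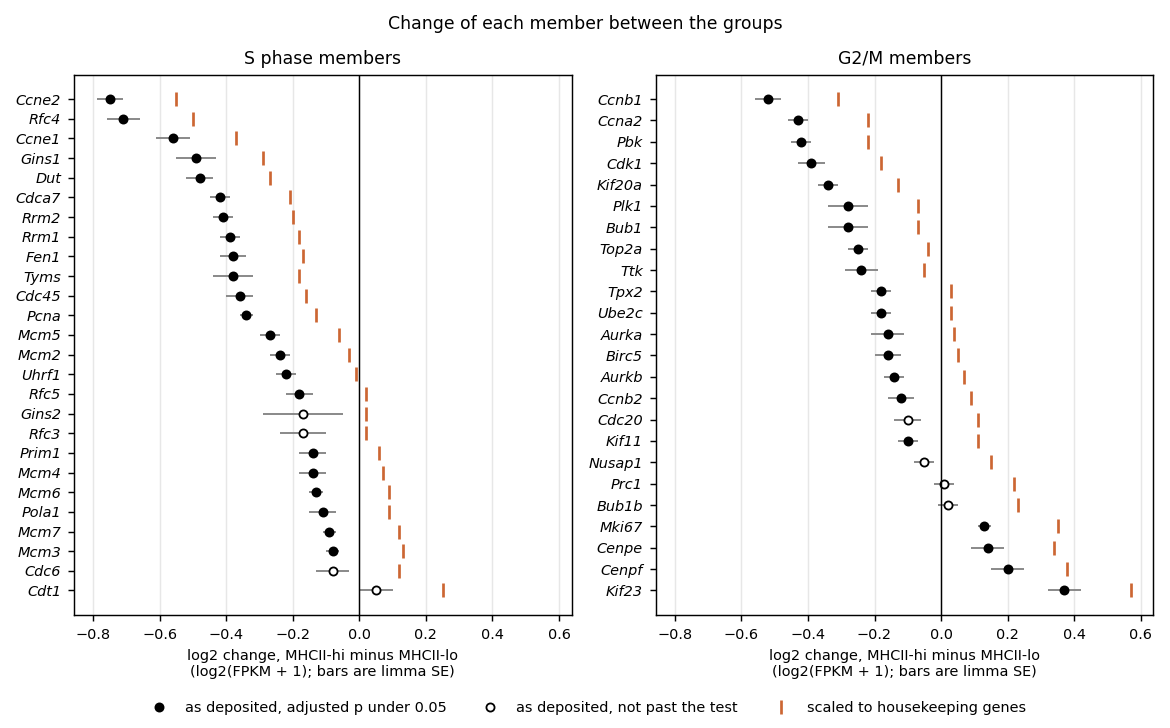
Log2 change of each member, MHCII-hi minus MHCII-lo, from log2(FPKM + 1) values with limma standard errors (circles with bars), filled where the adjusted p was under 0.05, and the same change after scaling to housekeeping genes (vertical ticks). The circles run from -0.75 for Ccne2 to 0.37 for Kif23, and the ticks of 15 of 26 S phase and 9 of 24 G2/M members stay below 0.

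Promoters of the members were read from RefSeq windows of GRCm38.p6 that run from 250 bases before to 50 bases after a gene's start, which held 41 of the 50 genes. Some genes have more than 1 window, and a gene was counted if any of its windows held the motif. An E2F motif (TTTGGCGC, TTTCCCGC, TTTGCCGC or TTTCGCGC on either strand) was found for 10 of 22 S phase genes with a window, 45.5%, and for 1 of 19 G2/M genes, 5.26%, beside 5.03% of the 8383 tested genes with a window. The CHR motif (TTTGAA or TTCGAA on either strand, the second being its own reverse complement) was found for 15 of 19 G2/M genes, 78.9%, and for 5 of 22 S phase genes, 22.7%, beside 17% of tested genes. A CCAAT box was found for 17 of 19 G2/M genes and 13 of 22 S phase genes, beside 43.8% of tested genes. The windows below were picked to show both elements in members that fell, rose or did not pass, and each was cut so that it holds 0 bases of a GENCODE M21 exon; that of Cdc6 lies inside the gene, downstream of another listed start. Capitals mark the E2F motif in the first 3, the E2F and CHR motifs in Cdk1, and the CHR motif in the last 3; in Mcm6 the first capital run holds overlapping E2F matches on opposite strands. Stretches of genes on the minus strand are given 5′ to 3′ in the direction of transcription.
Mcm6, minus strand, chr1:128359736-128359825: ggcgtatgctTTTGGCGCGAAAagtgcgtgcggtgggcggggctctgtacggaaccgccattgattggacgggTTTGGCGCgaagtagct
Cdca7, plus strand, chr2:72476119-72476158: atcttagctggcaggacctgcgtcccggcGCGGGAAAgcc
Cdc6, plus strand, chr11:98907991-98908050: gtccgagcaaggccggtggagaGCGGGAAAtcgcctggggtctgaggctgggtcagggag
Cdk1, minus strand, chr10:69352939-69353052: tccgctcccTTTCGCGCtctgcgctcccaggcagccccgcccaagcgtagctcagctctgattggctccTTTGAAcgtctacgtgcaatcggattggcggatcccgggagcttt
Mki67, minus strand, chr7:135716450-135716509: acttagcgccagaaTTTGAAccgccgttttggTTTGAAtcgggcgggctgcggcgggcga
Kif11, plus strand, chr19:37376322-37376381: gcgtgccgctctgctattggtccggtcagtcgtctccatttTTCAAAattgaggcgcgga
Top2a, minus strand, chr11:99024190-99024339: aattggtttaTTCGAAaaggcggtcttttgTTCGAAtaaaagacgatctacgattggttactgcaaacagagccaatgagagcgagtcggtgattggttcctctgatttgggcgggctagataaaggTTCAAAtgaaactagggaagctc

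Members with the same element moved in different ways. As deposited, Mki67, with a CHR match at positions -116 and -98 from the start, rose, while Top2a, Kif11 and Cdk1, with CHR matches as well, fell. On the housekeeping scale Cdk1 was still lower, at -0.18, Top2a did not pass, at -0.04, and Kif11 was higher, at 0.11. Cdca7 fell by 0.42 on the log2 scale with an E2F match at position -71, and Cdc6, with an E2F match at position -138, did not pass the test. A match is a run of letters and not a measured binding site.

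The loading of the replicative helicase came first among the S phase roles. The MCM ring is made of Mcm2 to Mcm7, and Cdc6 and Cdt1 place it on DNA. All 6 ring genes fell, by between 0.08 for Mcm3 and 0.27 for Mcm5 on the log2 scale. Mcm5 (chromosome 8, 75109569 to 75128439) stood at 68.57, 73.3 and 72.62 FPKM in MHCII-lo and at 58.65, 58.33 and 60.12 FPKM in MHCII-hi (log2 change -0.27 with a standard error of 0.03, adjusted p = 0.000398 in limma). Mcm6 stood at 74.75, 72.65 and 73.42 FPKM in MHCII-lo and at 66.58, 67.53 and 67.79 FPKM in MHCII-hi (log2 change -0.13 with a standard error of 0.02, adjusted p = 0.00254 in limma). Every MHCII-hi library was below every MHCII-lo library for all 6, as for 36.8% of all tested genes. On the housekeeping scale the ring genes lay between -0.06 for Mcm5 and 0.13 for Mcm3, and Mcm3, Mcm6 and Mcm7 were higher there at limma adjusted p of 0.00553, 0.0197 and 0.00411. Mcm3 and Mcm7 were also higher when the scale left out immunoglobulin genes. Of the loaders, Cdc6 had means of 12.5 ± 0.405 and 11.8 ± 0.733 FPKM (SD, n = 3, MHCII-lo then MHCII-hi) and did not pass. Cdt1 stood at 18.2, 20.06 and 21.04 FPKM in MHCII-lo and at 20.35, 20.87 and 20.09 FPKM in MHCII-hi. Its groups overlapped, and it was the only S phase member with a positive log2 change as deposited, 0.05 (limma adjusted p = 0.470); it was higher, by 0.22 and 0.25, on the scales without immunoglobulin genes and with housekeeping genes.

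Helicase activation and the sliding clamp differed more. Cdc45 and the GINS complex join the MCM ring to make the active helicase, Pcna is the ring-shaped clamp that holds polymerases on DNA, and the Rfc proteins load it. Cdc45 fell from 22.8 ± 0.672 to 17.5 ± 0.538 FPKM (SD, n = 3). Gins1 stood at 20.32, 20.77 and 20 FPKM in MHCII-lo and at 13.63, 15.7 and 13.28 FPKM in MHCII-hi, which is -0.49 on the log2 scale (standard error 0.06, adjusted p = 0.000544 in limma). Its partner Gins2 had an overlapping range, at 9.57, 9.76 and 9.87 against 8.48, 6.98 and 10.45 FPKM, and did not pass. Pcna, which had the highest level of all members, stood at 180.57, 176.87 and 173.84 FPKM in MHCII-lo and at 138.55, 137.28 and 142.38 FPKM in MHCII-hi (log2 change -0.34 with a standard error of 0.02, adjusted p = 3.25e-05 in limma). The clamp loader subunit Rfc4 (chromosome 16, 23113943 to 23127737) stood at 36.41, 35.74 and 37.38 FPKM in MHCII-lo and at 22.76, 20.37 and 22.78 FPKM in MHCII-hi. Its MHCII-hi level was 0.60 of its MHCII-lo level (log2 change -0.71 with a standard error of 0.05, adjusted p = 3.08e-05 in limma). The other loader subunits moved less: Rfc5 fell by 0.18 on the log2 scale, and Rfc3, at 7.60 ± 0.805 and 6.64 ± 0.234 FPKM (SD, n = 3), did not pass.

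The nucleotide supply genes fell together. All 4 fell, with log2 changes between -0.48 and -0.38, and they stayed lower on each of the 3 scales. Rrm1 and Rrm2 encode the subunits of ribonucleotide reductase, which makes deoxynucleotides. Rrm2 stood at 85.53, 87 and 81.58 FPKM in MHCII-lo and at 64.24, 63.65 and 62.36 FPKM in MHCII-hi (log2 change -0.41 with a standard error of 0.03, adjusted p = 4.26e-05 in limma). Rrm1 fell from 36.7 ± 0.905 to 27.7 ± 0.523 FPKM (SD, n = 3), so both subunits moved by nearly the same log2 amount, -0.39 and -0.41. Dut, which removes dUTP so that uracil is not built into DNA, stood at 43.27, 45.25 and 45.93 FPKM in MHCII-lo and at 32.82, 30.5 and 32.24 FPKM in MHCII-hi, which is -0.48 on the log2 scale (standard error 0.04, adjusted p = 6.23e-05 in limma). Tyms, the thymidylate synthase, fell from 11.1 ± 0.182 to 8.31 ± 0.632 FPKM (SD, n = 3). For these genes no MHCII-hi library reached the lowest MHCII-lo library, as for 36.8% of all tested genes.

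The E-type cyclins, which with Cdk2 drive the entry into S phase, were among the members that changed most. Ccne2 (chromosome 4, 11191351 to 11204779) stood at 15.27, 15.56 and 15.42 FPKM in MHCII-lo and at 9.03, 8.81 and 8.5 FPKM in MHCII-hi. This was the largest log2 change of the 50 members, -0.75 (standard error 0.04, adjusted p = 5.15e-06 in limma), and the MHCII-hi level was 0.57 of the MHCII-lo level. Ccne1 stood at 13.23, 12.25 and 11.89 FPKM in MHCII-lo and at 8.17, 7.87 and 8.25 FPKM in MHCII-hi (log2 change -0.56 with a standard error of 0.05, adjusted p = 8.16e-05 in limma). The groups lay far apart for both. The flap nuclease Fen1, which trims the lagging strand, fell from 31.2 ± 0.990 to 23.8 ± 0.954 FPKM, while Pola1, the catalytic subunit of DNA polymerase alpha, and Prim1, that of primase, fell by 0.11 and 0.14 on the log2 scale. Cdca7, which helps remodel chromatin with Hells, fell by 0.42, and Uhrf1, which guides DNA methylation to newly copied strands, fell by 0.22. Pola1 and Prim1 had positive changes of 0.09 and 0.06 on the housekeeping scale and passed the test on none of the 3 scales.

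Among the G2/M members, Cdk1 and its cyclins fell. Ccnb1 (chromosome 13, 100778650 to 100786570) encodes cyclin B1, the main mitotic partner of Cdk1. It stood at 35.8, 38.51 and 36.89 FPKM in MHCII-lo and at 25.83, 26.03 and 24.61 FPKM in MHCII-hi (log2 change -0.52 with a standard error of 0.04, adjusted p = 4.03e-05 in limma). Ccna2, which encodes the cyclin used in both S phase and G2, stood at 59.3, 58.06 and 60.9 FPKM in MHCII-lo and at 44.04, 44.45 and 42.7 FPKM in MHCII-hi (log2 change -0.43 with a standard error of 0.03, adjusted p = 2.77e-05 in limma). Cdk1 stood at 26.38, 26.21 and 24.71 FPKM in MHCII-lo and at 19.67, 20.13 and 18.67 FPKM in MHCII-hi (log2 change -0.39 with a standard error of 0.04, adjusted p = 0.000253 in limma). Every MHCII-hi library was below every MHCII-lo library for each of these, as for 36.8% of all tested genes. Ccnb2, the second B-type cyclin, moved less, from 54.6 ± 1.87 to 50.1 ± 2.15 FPKM (SD, n = 3; log2 change -0.12, limma adjusted p = 0.0363), and had changes of 0.05 and 0.09 on the scales without immunoglobulin genes and with housekeeping genes.

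Among the mitotic kinases, the spindle checkpoint and the anaphase-promoting complex, 7 of 9 members fell, beside 33.1% of all tested genes, and Pbk fell most. Pbk, a mitotic kinase also called TOPK, stood at 32.06, 31.88 and 32.38 FPKM in MHCII-lo and at 23.53, 23.95 and 23.51 FPKM in MHCII-hi (log2 change -0.42 with a standard error of 0.03, adjusted p = 1.60e-05 in limma). The kinases Plk1, Aurka and Aurkb fell by 0.28, 0.16 and 0.14 on the log2 scale. Of the checkpoint kinases, Bub1 and Ttk fell by 0.28 and 0.24. Bub1b, which encodes the checkpoint protein BubR1, stood at 32.2, 32.56 and 30.52 FPKM in MHCII-lo and at 33, 31.67 and 31.89 FPKM in MHCII-hi, and its groups overlapped; it was higher by 0.19 and 0.23 on the scales without immunoglobulin genes and with housekeeping genes. Ube2c, which encodes the ubiquitin-conjugating enzyme of the anaphase-promoting complex, fell by 0.18, and Cdc20, which activates that complex, had means of 48.2 ± 1.80 and 44.8 ± 1.68 FPKM (SD, n = 3) and did not pass (limma adjusted p = 0.0588), while on the housekeeping scale it was higher by 0.11. On the housekeeping scale Plk1, Bub1 and Ttk remained below 0, and Aurka, Aurkb and Ube2c lay above it; none of these 6 passed the test there.

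The genes that rose act at the kinetochore, the central spindle and the chromosome surface. Kif23 (chromosome 9, 61915905 to 61946774), a kinesin of the central spindle needed for cytokinesis, stood at 10.65, 11.86 and 11.95 FPKM in MHCII-lo and at 15.7, 15.13 and 14.52 FPKM in MHCII-hi. It was 1.32-fold higher (log2 change 0.37 with a standard error of 0.05, adjusted p = 0.00109 in limma). Mki67, the protein that coats mitotic chromosomes and is used as the Ki-67 proliferation mark, stood at 77.38, 76.42 and 76.23 FPKM in MHCII-lo and at 83.7, 85.96 and 83.19 FPKM in MHCII-hi (log2 change 0.13 with a standard error of 0.02, adjusted p = 0.00205 in limma). Its change was 0.35 on the housekeeping scale but -0.06 with quantile normalization and -0.07 when libraries were scaled to their summed FPKM. Cenpf, a kinetochore protein, stood at 4.56, 4.82 and 4.61 FPKM against 5.93, 5.23 and 5.37 FPKM (MHCII-lo then MHCII-hi), which is 0.20 on the log2 scale (standard error 0.05, adjusted p = 0.0182 in limma). The kinetochore motor Cenpe stood at 11.78, 11.32 and 12.07 FPKM against 12.97, 12.49 and 13.74 FPKM, which is 0.14 on the log2 scale (standard error 0.05, adjusted p = 0.0306 in limma), and its change was -0.04 when scaled to summed FPKM. Groups did not overlap for these 4 of 24 G2/M members, 16.7%, while 29.0% of all tested genes had every MHCII-hi library above every MHCII-lo library. The count of G2/M members that rose became 2 without MHCII-lo replicate 1 and 2 without MHCII-hi replicate 1, since Cenpe and Cenpf no longer passed.

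The other chromosome and spindle genes did not follow them. Top2a, the topoisomerase that untangles copied DNA, stood at 78.39, 79.04 and 80.98 FPKM in MHCII-lo and at 66.94, 64.85 and 68.02 FPKM in MHCII-hi (log2 change -0.25 with a standard error of 0.03, adjusted p = 0.000251 in limma). On the housekeeping scale its change was -0.04 and did not pass. As deposited, the 2 most abundant G2/M members, Top2a and Mki67, moved in opposite directions. The kinesin Kif20a, which like Kif23 works in cytokinesis, stood at 26.96, 25.59 and 26.3 FPKM in MHCII-lo and at 20.18, 20.99 and 20.42 FPKM in MHCII-hi (log2 change -0.34 with a standard error of 0.03, adjusted p = 0.000140 in limma). Tpx2, a spindle assembly factor, Birc5, which encodes survivin of the chromosomal passenger complex, and the spindle motor Kif11 fell by 0.18, 0.16 and 0.10 on the log2 scale. Kif11 was higher on the housekeeping scale (log2 change 0.11, limma adjusted p = 0.0219). Nusap1 and Prc1, microtubule-binding proteins of the spindle, had means of 28.9 ± 0.446 and 27.8 ± 1.03 FPKM, and of 14.8 ± 0.420 and 14.9 ± 0.126 FPKM (SD, n = 3, MHCII-lo then MHCII-hi), and did not pass as deposited. On the scales without immunoglobulin genes and with housekeeping genes both were higher, Nusap1 by 0.12 and 0.15 and Prc1 by 0.18 and 0.22. Of all called members, 17 of 22 S phase and 14 of 20 G2/M members passed with each library left out in turn; the 5 and 6 that did not were Mcm3, Mcm4, Mcm7, Pola1 and Prim1, and Ccnb2, Aurka, Birc5, Cenpe, Cenpf and Kif11.

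The balance between the phases was then set out within each library, where the scale of a library cancels. The geometric mean of the S phase members was 28.9, 29.0 and 28.7 FPKM in MHCII-lo and 23.5, 23.0 and 23.4 FPKM in MHCII-hi. That of the G2/M members was 27.1, 27.1 and 26.9 FPKM in MHCII-lo and 24.5, 24.2 and 24.3 FPKM in MHCII-hi. S phase members thus stood above G2/M members in all 3 MHCII-lo libraries and below them in all 3 MHCII-hi libraries. The log2 ratio of S phase to G2/M was 0.095, 0.102 and 0.093 in MHCII-lo and -0.066, -0.077 and -0.052 in MHCII-hi, a difference of -0.161 between group means of 0.097 ± 0.005 and -0.065 ± 0.013 (SD, n = 3). Relative to the housekeeping genes, the S phase mean was 0.652, 0.646 and 0.640 in MHCII-lo and 0.614, 0.597 and 0.605 in MHCII-hi. The G2/M mean on that scale was 0.610, 0.602 and 0.600 in MHCII-lo and 0.643, 0.630 and 0.627 in MHCII-hi. The classes thus moved in opposite directions on the housekeeping scale and changed order. That scale itself was lower in MHCII-hi, with a log2 difference of -0.216, where the G2/M mean as deposited differed by -0.149. On the median ratio scale the medians of both classes were negative, -0.21 for S phase and -0.12 for G2/M. No test is given for these means, since the members were chosen with earlier results known.

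**Figure D3:**
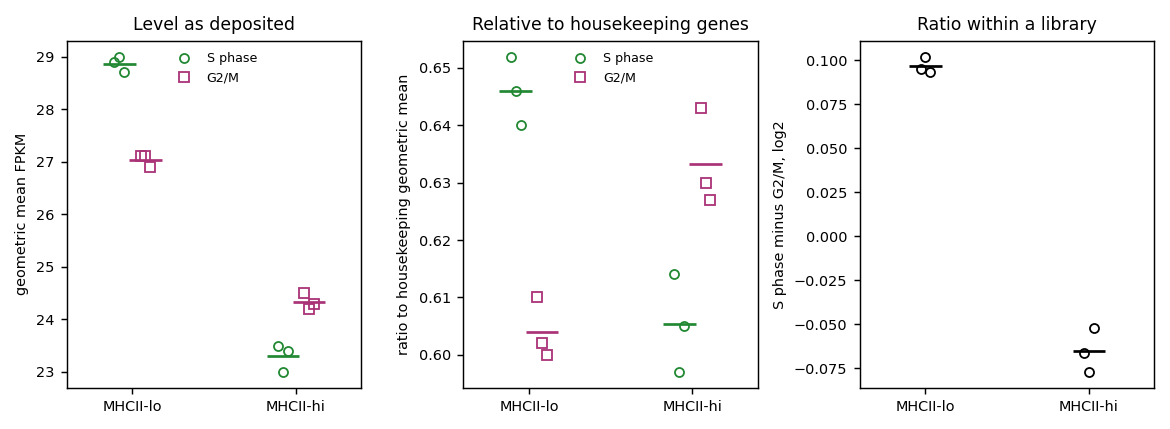
Geometric mean FPKM of S phase (circles) and G2/M members (squares) per library as deposited (left), the same relative to housekeeping genes (middle), and the log2 ratio of S phase to G2/M in each library (right), with group means as lines and vertical axes that do not start at 0. The ratio lies between 0.093 and 0.102 in MHCII-lo and between -0.077 and -0.052 in MHCII-hi.

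That balance moved with the summed exon length of the genes. This length joins the exons of all annotated transcripts of a gene, so it can exceed that of the transcript expressed. Over the 50 members the log2 change and the log2 of the summed exon length (GENCODE M21 annotation) had a Pearson r of 0.50 and a Spearman rho of 0.42, a description over genes that share 6 libraries. The values were 0.62 and 0.55 for the 44 other replication genes, 0.19 and 0.17 for the 61 other mitosis genes, and -0.20 and 0.13, of opposite sign, for the 11875 tested genes with a length. The 7 S phase members shorter than 2815 bases, Gins1, Pcna, Rfc4, Rrm2, Dut, Fen1 and Ccne1, had a median log2 change of -0.48, and all 7 fell. The 8 G2/M members longer than 4930 bases had a median of 0.07 and held all 4 members that rose. Between those lengths, 14 S phase members had a median of -0.17 and 10 G2/M members a median of -0.21. In this middle range, an alternative chosen after seeing the data, the difference in the log2 ratio of S phase to G2/M was 0.011 in place of -0.161, and the libraries of the groups overlapped, at 0.033, 0.059 and 0.056 in MHCII-lo and 0.048, 0.024 and 0.108 in MHCII-hi. A lowess trend of the change over exon length was also removed from all genes. The S phase mean of the log2(FPKM + 1) changes minus the G2/M mean was then -0.123, where the same measure was -0.15 as deposited. The S phase median was -0.20 and the G2/M median -0.06. With that trend removed Kif23 still rose (log2 change 0.33, limma adjusted p = 0.00212), and Mki67, Cenpe and Cenpf no longer passed, at 0.0750, 0.138 and 0.542. Ccne2, of 3495 bases, and Ccnb1, of 4217 bases, lie in the middle range and kept their falls. The part of length in the phase difference was not tested further.

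Other genes of the same pathways, from lists that hold no member, had smaller median changes, and their direction depended on the scale. Of 44 other replication genes 21 fell (47.7%), 3 rose (6.82%) and 20 did not pass, with a median log2 change of -0.10, where 33.1% of all tested genes fell and 25.5% rose. The genes with the largest changes were Rpa3, a subunit of the single-strand binding protein, from 27.1 ± 0.610 to 15.5 ± 1.33 FPKM, the chromatin remodeller Hells, from 17.3 ± 1.11 to 11.6 ± 0.199 FPKM, and Tipin of the fork protection complex, from 61.0 ± 0.953 to 42.5 ± 1.79 FPKM (SD, n = 3, MHCII-lo then MHCII-hi). Those that rose were Ticrr, Pole and Rfc2, by 0.38, 0.22 and 0.13 on the log2 scale. On the housekeeping scale 14 replication genes fell (31.8%, beside 14.9% of all genes) and 16 rose (36.4%, beside 44.0%), with a median of 0.10. Of 61 other mitosis genes 25 fell (41.0%, beside 33.1% of all tested genes), 10 rose (16.4%, beside 25.5%) and 26 did not pass, with a median of -0.03. On the housekeeping scale 7 of them fell (11.5%, beside 14.9%) and 33 rose (54.1%, beside 44.0%), with a median of 0.17 where that of all genes was 0.14. The abundant chromatin protein Hmgb2 fell from 339 ± 1.83 to 229 ± 3.94 FPKM, and Spc25 of the kinetochore and Smc2 of condensin fell by 0.41 and 0.37 on the log2 scale. Racgap1, named after its value was seen because its protein pairs with that of Kif23 in the centralspindlin complex, rose from 18.9 ± 0.522 to 22.0 ± 0.378 FPKM (SD, n = 3; log2 change 0.21, limma adjusted p = 0.00155). Incenp, named in the same way as a partner of Aurkb and Birc5 in the passenger complex, rose by 0.18 where those 2 fell. Cdca8, a further subunit of that complex, fell by 0.10, and Ect2, which binds centralspindlin, fell by 0.19. Cdca8 and Ect2 were also named after their values were seen.

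The transcription factors that govern the programme were called about as often as all genes. Of 23 E2F and DREAM regulators 8 fell (34.8%, beside 33.1% of all tested genes), 6 rose (26.1%, beside 25.5%) and 9 did not pass, with a median log2 change of 0.02. On the housekeeping scale 5 fell (21.7%, beside 14.9%) and 13 rose (56.5%, beside 44.0%), with a median of 0.19 where that of all genes was 0.14. Those that changed most were Nfyb, a subunit of the factor that binds CCAAT boxes, from 11.7 ± 0.491 to 8.15 ± 0.255 FPKM, Tfdp1, the main partner of E2F proteins, from 83.4 ± 1.46 to 61.1 ± 0.549 FPKM, and the activator E2f2, from 27.8 ± 1.91 to 20.5 ± 0.675 FPKM (SD, n = 3, MHCII-lo then MHCII-hi). Foxm1, which drives G2/M genes, rose by 0.19, while Mybl2, from the same list, fell by 0.33. Rb1 and Rbl2, which restrain E2F proteins, rose by 0.18 and 0.24, while their relative Rbl1 fell by 0.17. Foxm1, Mybl2, Rb1, Rbl2 and Rbl1 were named after their values were seen.

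**Figure D4:**
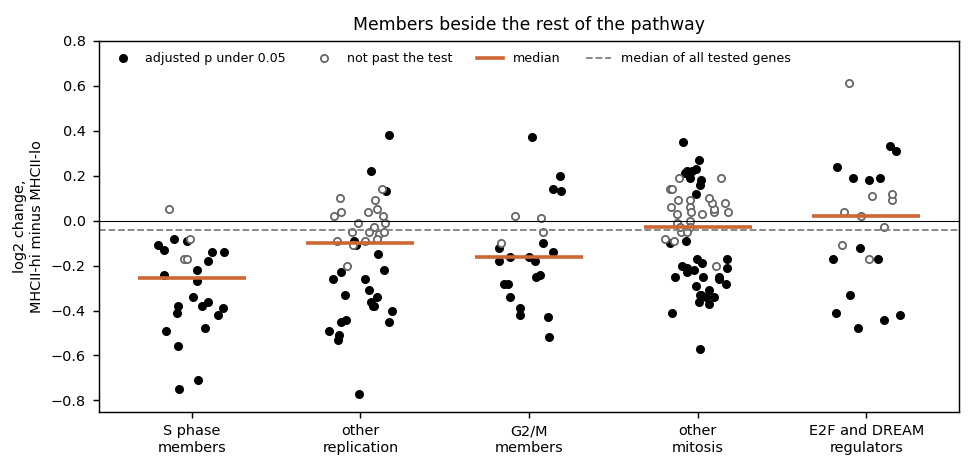
Log2 change, MHCII-hi minus MHCII-lo, of each gene in 5 lists, filled where the adjusted p was under 0.05, with the list median (thick line) and the median of all tested genes (dashed line); horizontal placement within a list carries no meaning. Medians are -0.26 and -0.16 for the S phase and G2/M members and -0.10, -0.03 and 0.02 for the other lists.

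Markers of other marrow cells moved beside the programme. All 14 mature neutrophil markers fell, as did 10 of 11 granulocyte precursor markers found in the files. Erythroblast markers summed to between 597 and 614 FPKM in MHCII-lo and between 444 and 454 FPKM in MHCII-hi, and 8 of 15 fell while 3 rose. All 12 plasma cell markers rose, from a sum of between 466 and 485 FPKM to one of between 21999 and 22599 FPKM, with Tnfrsf17 listed at 0 in an MHCII-lo library. B cell precursor markers summed to between 10.3 and 12.4 FPKM in MHCII-lo and between 72.2 and 73.8 FPKM in MHCII-hi, and 6 of 12, including Rag1 and Pax5, were listed at 0 in at least 1 MHCII-lo library. Of 12 tested T and NK cell markers 11 rose, with a median log2 change of 1.38. The sum over all 15 listed, between 172 and 181 FPKM in MHCII-lo and between 234 and 245 FPKM in MHCII-hi, is mostly Nkg7, which is also in the granulocyte precursor list and had means of 150 and 148 FPKM. Markers of eosinophils, basophils and mast cells summed to between 3079 and 3124 FPKM in MHCII-lo and between 8072 and 8226 FPKM in MHCII-hi. Their part in the differences of the cell cycle genes was not tested.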

How the data were processed

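Bulk RNA was sequenced from 3 MHCII-hi and 3 MHCII-lo libraries, grouped by their labels. Stranded mRNA libraries were prepared from kit-extracted RNA, per the labels' protocols. Tools named in the submitters' processing notes are HISAT2, StringTie and fastp, with the build GRCm38 (mm10) and no versions; their settings and the annotation are unknown here. 1 table a library was deposited by the authors, with a value for each gene symbol. Its header states no unit, and the deposited values were taken to be FPKM. Of 30803 rows, 70 that shared a symbol with a row of higher mean were dropped. A two-sided limma fit (version 3.58.1, R 4.3.3) of log2(FPKM + 1), with trend and no covariate, covered the 12110 genes whose mean reached 1 FPKM, with Benjamini-Hochberg adjustment at 0.05. Fold changes on this scale understate the change of low genes. Depth was estimated from the most common low value of FPKM times length among single-exon genes within a preset window, so it is approximate. In simulated data for this comparison (12110 genes), 50 genes were changed at each fold size. The share of these called was 20% at 1.1-fold, 56% at 1.25-fold and 86% at 1.5-fold, and 12 unchanged genes were called. In the deposited values 7093 of 12110 genes were called, 58.6%. The adjustment is stricter where few genes change, so neither these shares nor the count of false calls carries over to the real fit.

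The members and lists were chosen with earlier results of these data known. Any member could be named. Values per library are given for the 5 called members with the largest change in each direction of each class, the 3 most abundant of each class and members that went against their class, and a few others. Outside the members, up to 3 called genes with the largest change per list are named, and further ones are marked in the text. Of the lists, Azu1 and Fam64a, an older symbol of Pimreg, were not matched. Coordinates and exon lengths are those of GENCODE M21 (GRCm38). Exon length is the union over all annotated transcripts of a gene. Where the expressed transcript is shorter, the estimated fragments of a member are too high.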

Additional observations from a re-analysis of the deposited data

How the results depend on the processing

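Pseudocount 0.1, robust limma and a minimum of 5 FPKM kept the direction and the call of all 50 members; the last gave 1792 genes higher over all genes, where 7327 were tested. Deviations from the group means showed no pairing of same-numbered libraries (correlations -0.09, -0.00 and -0.03). With a spread this small, that cannot show whether those libraries came from the same animals. A replicate block gave 21 S phase members lower, 14 G2/M members lower and 4 higher, and 2856 genes higher and 3782 lower over all genes.

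Scaled without immunoglobulin genes, the S phase median was -0.08 (13 lower, 3 higher), the G2/M median 0.01 (6 lower, 7 higher), and over all genes 4901 were higher and 2131 lower. Of the members that passed the test as deposited or on this scale, those whose log2 change was no longer negative were Aurka 0.00, Aurkb 0.03, Birc5 0.01, Ccnb2 0.05, Kif11 0.07, Mcm3 0.09, Mcm4 0.04, Mcm6 0.05, Mcm7 0.08, Nusap1 0.12, Pola1 0.05 and Prim1 0.02, and of the others Cdc6 0.08 and Cdc20 0.07 also turned positive. Scaled to housekeeping genes, the S phase median was -0.05 (12 lower, 4 higher), the G2/M median 0.05 (5 lower, 9 higher), and over all genes 5326 were higher and 1807 lower. Of the members that passed as deposited or on this scale, those that turned positive were Aurka 0.04, Aurkb 0.07, Birc5 0.05, Ccnb2 0.09, Cdc20 0.11, Kif11 0.11, Mcm3 0.13, Mcm4 0.07, Mcm6 0.09, Mcm7 0.12, Nusap1 0.15, Pola1 0.09, Prim1 0.06, Rfc5 0.02, Tpx2 0.03 and Ube2c 0.03, and of the others Cdc6 0.12, Gins2 0.02 and Rfc3 0.02 also did. The median ratio scale gave medians of -0.21 (S phase) and -0.12 (G2/M). Scaled to summed FPKM (also chosen after seeing the data), the medians were -0.45 and -0.35, 1 G2/M member was higher, 1855 genes were higher and 6319 lower, and Bub1b -0.18, Cdt1 -0.14, Cenpe -0.04, Mki67 -0.07 and Prc1 -0.18 turned negative. Quantile normalization gave an S phase median of -0.31, 2 G2/M members higher, a ratio difference of -0.191 and Mki67 at -0.06.

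With the exon length trend removed (chosen after seeing the data), the medians were -0.20 and -0.06, 1 S phase member and 1 G2/M member were higher, 10 G2/M members were lower and Ccnb2 stood at 0.04. The S phase mean of the changes minus the G2/M mean was -0.123 there, beside -0.15 as deposited. Among members of middle length, chosen likewise, the ratio difference was 0.011. Leaving out each library in turn gave 18 to 22 S phase members lower, 0 higher, 13 to 15 G2/M members lower and 2 to 4 higher, S phase medians of -0.29 to -0.25, ratio differences of -0.168 to -0.155, and 2716 to 2922 genes higher and 3583 to 3693 lower over all genes. The causes were not tested.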
